A study of Saccharomyces cerevisiae with 8 samples.

Results

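Opposite-strand pairs are CAGE-seq peaks in the synthetic locus that start close to a peak on the other strand. A peak was counted as a member when its 5′ end lay within 300 bp of the 5′ end of a peak on the other strand in the same library. The 5′ end is the upstream edge of the called region, its left edge on the forward and right edge on the reverse strand. It is called the start below, although the summit can lie further inside the region. Across 8 libraries, 265 of 753 locus peaks were members, out of 25790 peaks in all the lists used. By the strand order of the nearest partner, 165 members were divergent, with the forward start at or right of the reverse start, and 100 were convergent, with the starts facing each other. Taking only partners that were each other's nearest gave 126 pairs, of which 78 were divergent and 48 convergent. A site paired in several libraries counts once in each of them. Members were chosen by the measured positions of the peaks, so the paired share and the distances up to the limit are given as descriptions.

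CAGE-seq captures the capped 5′ ends of RNA and maps transcription start sites with their strand. All libraries came from Saccharomyces cerevisiae BY4741, a laboratory strain with the genotype his3Δ1 leu2Δ0 met15Δ0 ura3Δ0. The strains carried synthetic HPRT1, a sequence of about 100 kb around a human gene, or HPRT1R. In HPRT1R the order of these bases is reversed without complementing them. By the study's account this keeps base composition and runs of the same base, and removes coding information and evolved regulatory elements. Each locus was present as an episome on a yeast artificial chromosome with a LEU2 marker, grown in SC-Leu, or integrated at YKL162C-A on chromosome XI, grown in YPD. All cultures were grown at 30 °C and regrown for 6 hours to mid-log phase, with 2 replicates in each of the 4 groups, which the study took from separate colonies. Medium, genomic context and the copy number of the episome cannot be told apart in this design.

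In yeast, RNA polymerase II often starts in both directions from the same nucleosome-depleted region. Divergent starts arise where neighbouring genes share an upstream region or where a coding promoter also fires an upstream antisense transcript, many of which are short-lived. Convergent starts face each other, so that the transcripts overlap and are antisense to each other near their 5′ ends. Initiation within human sequence placed in yeast is of interest because that sequence did not evolve under yeast transcription.

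Depth was solved from the peak statistics and was 6.48 to 8.85 M aligned reads per library, where M is 1000000 reads, split into 2.46 to 3.16 M forward and 4.02 to 5.69 M reverse reads. The lowest summit pileup in a native list was 61 to 75 reads on the forward strand and 93 to 125 reads on the reverse strand, so weaker partners could not be seen, and more reads were needed on the reverse strand. The lowest locus peak called had 68 to 122 reads on the forward strand, and on the reverse strand 107 to 115 reads in integrated and 166 to 410 reads in episome libraries. Heights are the summit pileup per 1000000 aligned reads of the library (RPM), and are not corrected for the copy number of the locus. The strand labels held at native genes, where 76.3% of native peaks lay at a protein-coding start of their own strand and 18.7% at one of the other strand.

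For HPRT1R, designed sequence was at hand around 2 pairs that were called in at least 2 libraries. Both are divergent and both are shown on the forward strand of the locus, 5′ to 3′, with capitals from the leftmost reverse 5′ end to the forward 5′ end. The arms of the oligos that placed a reporter gene at position 13493 of HPRT1 give another sequence, at a convergent pair. It is shown because it is the only convergent pair called in all 4 libraries of a locus. It reads in the direction of the inserted gene, with lower case before and capitals after the insertion point. In its main text the study writes this position with a minus sign. Which strand of the locus the sequence shows was still not settled, because the designed HPRT1 sequence was not at hand. Locus positions count from the first synthetic base held in the authors' references, and chromosome XI coordinates are those of the sacCer3 chromosome with the locus inserted, forward strand.
HPRT1R divergent pair at 17805 and 17906, chrXI:164110-164296: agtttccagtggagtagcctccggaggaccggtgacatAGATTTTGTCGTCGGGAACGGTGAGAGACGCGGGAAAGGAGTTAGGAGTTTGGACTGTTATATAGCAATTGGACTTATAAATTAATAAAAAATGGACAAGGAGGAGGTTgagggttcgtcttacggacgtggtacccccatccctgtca
HPRT1R divergent pair at 21631 to 21648 and 21797, chrXI:167941-168187: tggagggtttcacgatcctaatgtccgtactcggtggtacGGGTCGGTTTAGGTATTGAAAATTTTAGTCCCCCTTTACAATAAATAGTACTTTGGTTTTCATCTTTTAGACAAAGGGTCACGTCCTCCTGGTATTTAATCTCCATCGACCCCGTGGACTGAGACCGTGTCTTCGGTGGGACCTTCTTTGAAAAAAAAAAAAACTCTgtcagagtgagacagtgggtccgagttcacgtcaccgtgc
HPRT1 convergent pair at 13460 and 13507, insertion at 13493: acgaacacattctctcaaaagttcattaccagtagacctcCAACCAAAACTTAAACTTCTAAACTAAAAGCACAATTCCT

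The stretch in capitals at the first HPRT1R pair was 109 bases long and held 40.4% G and C, against 48.1% over the 187 bases printed. The letters TATAAA, the core of the yeast TATA element, occurred there on the forward strand and began 33 bases before the forward 5′ end. A run of 6 A ended 17 bases before it. At the second HPRT1R pair a run of 13 A ended 4 bases before the forward 5′ end, and TATAAA was found on neither strand of the 247 bases. As words of 6 letters, TATAAA and AAAAAA are common in the HPRT1R sequence at hand. Searched on both strands, with overlapping matches counted once per window, TATAAA or TTTATA was in 25.9% of 54 windows of 187 bases and AAAAAA or TTTTTT in 51.9%, taken from the 27 stretches of designed HPRT1R sequence at hand. For 27 windows of 247 bases the shares were 40.7% and 59.3%. These shares count a run of 6 anywhere in a window, and do not show how common a run of 13 at such a distance is. The study listed stretches of A and T among the motifs enriched in predicted promoter regions of the loci. A match describes the letters and was not tested as a binding site.

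The HPRT1R pair at 17805 and 17906 was called in 3 of 4 libraries, and its partners were close in height. The forward start had 449.6 and 523.3 RPM in the episome and 74.6 RPM in integrated replicate 1. The reverse start had 330.8 and 491.7 RPM in the episome and 63.5 RPM in integrated replicate 1. The taller partner was 1.36, 1.06 and 1.17 times as high as the lower in these libraries. Both 5′ ends were at the same bases in both episome libraries, 101 bp apart, and 108 bp apart in integrated replicate 1. In integrated replicate 2 a forward peak of 144.1 RPM began at 17893, and was paired with a reverse peak of 149.3 RPM further out, at 17664 and 229 bp away.

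The HPRT1R pair at 21797 was unequal and depended on the reverse partner being called. Its forward start was at base 21797 in all 4 libraries, at 901.5 and 808.4 RPM in the episome and 171.6 and 222.4 RPM in the integrated locus. A reverse partner was called in episome replicate 1, at 262.9 RPM and 166 bp away, and in integrated replicate 2, at 24.98 RPM and 149 bp away. The forward start was 3.43 and 8.90 times as high as the reverse in those libraries. The oligo arms that target this position meet at the same base, between 21796 and 21797. The study set its reporter insertions at the 5′ boundary of CAGE-seq peaks. This match follows from that choice and is no independent support.

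Across all libraries, 32.3% to 39.8% of HPRT1 peaks and 25% to 44.4% of HPRT1R peaks were paired. The background over all libraries was 15.8% for native peaks outside genes and 14.6% for all native nuclear peaks, against 35.2% in the locus. In single libraries the native share outside genes was 15.2% to 17.5%, so locus and native shares did not overlap. Locus peaks were also denser, at 86.4 to 102.2 per 100 kb, than native peaks outside genes, at 74.2 to 83.7 per 100 kb of sequence outside genes. The native value leaves out genes, where 588 to 732 peaks per library lay, although the 300 bp around a native peak can reach into a gene. Against the average of the whole yeast genome, the study put the CAGE-seq peak count of both loci at around 3 times. The part of density in the paired share was not tested. Only 0 to 3 locus peaks in a library had more than 1 partner within the limit.

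**Figure D1:**
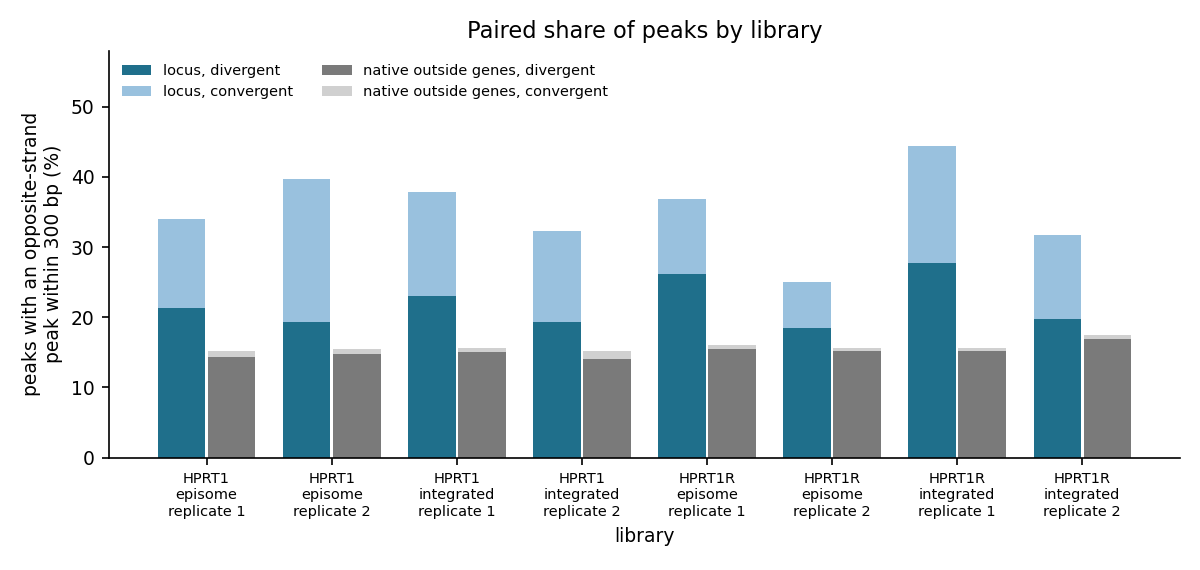
Share of peaks with an opposite-strand peak within 300 bp (y axis, percent) in each of the 8 libraries (x axis). Stacked bars give divergent and convergent classes for locus peaks and for native peaks outside genes. Locus bars reach 25% to 44.4% and native bars 15.2% to 17.5%, and the convergent part is 6.52% to 20.4% in the locus and 0.433% to 1.11% outside native genes.

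The classes differed between locus and genome mainly in convergent pairing. Divergent members made up 18.5% to 27.8% of locus peaks and 14.1% to 16.9% of native peaks outside genes. Convergent members made up 6.52% to 20.4% of locus peaks, against 0.433% to 1.11% outside native genes and 1.72% to 3.69% of native peaks inside genes. Of pairs with both partners outside native genes, 1373 of 1413 were divergent, which is 94.5% to 98.9% in single libraries. In the locus the divergent share of pairs was 47.1% to 72.7%. The lowest locus share of convergent members, in HPRT1R episome replicate 2, was above the highest native share outside or inside genes.

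Distances between partners were also spread differently. Native divergent pairs outside genes clustered, with a median distance of 182 to 193 bp in single libraries, and 36.1% of all 1413 native pairs were 150 to 199 bp apart in the divergent order. In the locus the median divergent distance was 81 to 183 bp and no 50 bp interval in either orientation held more than 11.9% of the 126 pairs. Divergent partners at most 100 bp apart were 26 of 78 locus pairs and 91 of 1373 native pairs. That share was higher in the locus in 8 of 8 libraries, at 8.33% to 60.0% against 4.29% to 8.33%. The smallest excess was in HPRT1R integrated replicate 1, where 1 of 12 divergent locus pairs was this close, against 7.82% of native ones. Convergent locus partners had a median distance of 67 to 241 bp. These comparisons were chosen after the values were seen and have no test. The orientation and distance comparisons with native pairs rest on the edges of called regions. They were not repeated with starts placed by the summit.

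**Figure D2:**
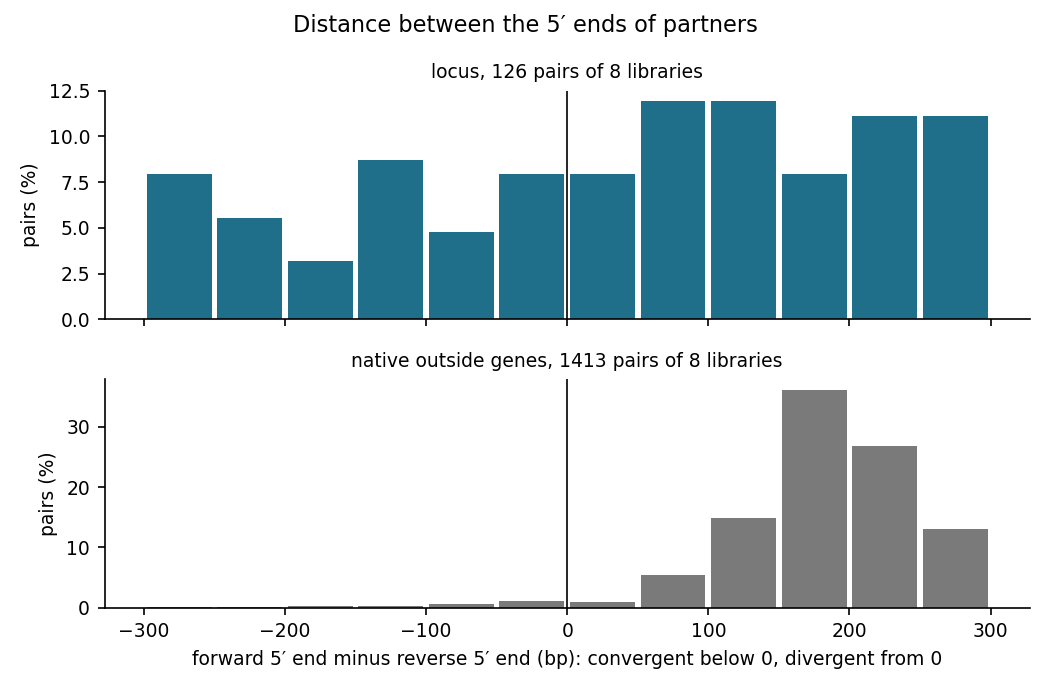
Percent of pairs (y axis) by forward 5′ end minus reverse 5′ end in intervals of 50 bp (x axis), for 126 locus pairs (top) and 1413 native pairs outside genes (bottom), pooled over 8 libraries. A pair called in several libraries counts in each. Values below 0 are convergent. The native distribution peaks at 36.1% between 150 and 199 bp, and no interval of the locus holds more than 11.9%.

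The limit of 300 bp does not follow a gap in the locus data. Allowing distances up to 350 bp, 25 pairs lay 250 to 300 bp apart, with median heights of 44.8 RPM for the lower and 184.1 RPM for the taller partner. Another 25 lay 302 to 350 bp apart, with medians of 101.5 and 267.7 RPM. Among those just outside, and named after its values were seen, was an HPRT1R divergent arrangement seen in all 4 libraries, with a reverse 5′ end at 11010 and a forward 5′ end at 11345 or 11355. Its forward and reverse starts had 613.0 and 509.2 RPM in episome replicate 1, 563.8 and 384.3 RPM in episome replicate 2, 137.7 and 69.2 RPM in integrated replicate 1, and 261.3 and 146.5 RPM in integrated replicate 2. The forward start was the higher in each of them. The HPRT1 starts at 56086 and 56409, at 534.9 and 3150 RPM in episome replicate 1, were 323 bp apart and also fell outside.

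The question whether paired starts are stronger than single ones was addressed by their heights. Median heights of members were 198.2 and 142.7 RPM in the HPRT1 episome and 153.3 and 196.4 RPM in the HPRT1R episome. They were 55.2 and 56.3 RPM for integrated HPRT1 and 42.6 and 43.5 RPM for integrated HPRT1R. Remaining locus peaks had medians of 103.5, 135.4, 199.1 and 203.3 RPM in the episome libraries, in the same order, and 49.7, 54.1, 36.1 and 44.1 RPM in the integrated ones. Members were thus higher than the remaining peaks in 5 of 8 libraries, and the geometric mean ratio was 1.09 (range 0.77 to 1.92, n = 8; exact two-sided sign permutation test, p = 0.445, adjusted over the 8 planned tests p = 0.667). This ratio was 0.849 (exact permutation test, unadjusted p = 0.0312) when starts were placed by the summit, so its direction depends on how a start is placed.

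The level of paired starts differed between contexts, in heights that were not corrected for the copy number of the locus. The study estimated the copy number of the episomes and corrected for it when it compared coverage depth with the genome. The part of copy number in the levels below was not tested. Relative to the native median of the same library, which was 41.7 to 46.8 RPM, the median member stood at 3.22 to 4.65 times in the 4 episome libraries and at 0.997 to 1.26 times in the 4 integrated libraries. These ranges do not overlap, and the medians of the remaining locus peaks, 103.5 to 203.3 RPM in the episome and 36.1 to 54.1 RPM in the integrated locus, did not overlap either. The medians of native peaks outside genes were 48.7 to 59.3 RPM for paired and 52.9 to 58.9 RPM for unpaired peaks.

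Members were on average 25.1 bp wider than remaining locus peaks (SD 24.9, n = 8 libraries; exact two-sided sign permutation test, p = 0.0469, adjusted p = 0.375). Mean widths were 273.6 to 360.3 bp for members and 268.3 to 317.6 bp for the rest, and members were wider in 6 of 8 libraries. The difference did not pass after adjustment, and leaving out any 1 of 6 of the libraries raised its unadjusted exact permutation p to between 0.0625 and 0.0938. The share of peaks at the narrowest width of 200 bp was 27.4% ± 12.7 (SD, n = 8) for members and 27.8% ± 11.1 for the rest.

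Partners within a pair were unequal. The median ratio of the taller to the lower partner, on the log2 scale, was 0.53 to 1.78 in single libraries. It was 1.19 ± 0.55 for divergent and 1.61 ± 0.67 for convergent pairs (SD, n = 8), a difference of -0.42 that was smaller than the spread between libraries (exact sign permutation test, p = 0.258, adjusted p = 0.516). It was -0.014 with a limit of 500 bp, -0.64 without HPRT1 integrated replicate 2, -0.25 without HPRT1R episome replicate 1 and -0.26 without HPRT1R integrated replicate 2. Native pairs outside genes had a median ratio of 1.48 ± 0.13 on the same scale, and locus pairs differed from them by -0.20 (exact sign permutation test, p = 0.164, adjusted p = 0.438). Locus pairs were the more equal in 7 of 8 libraries, with integrated HPRT1 replicate 2 the exception. Without that library the difference was -0.27 (exact permutation test, unadjusted p = 0.0156). HPRT1R integrated replicate 1 had the widest difference, -1.04, and without it the mean was -0.076 (exact permutation test, unadjusted p = 0.328). In every library the lowest reverse peak called was higher in the locus than in the native list. Native pairs outside genes were also nearly all divergent. The part of either in the difference from native pairs was not tested.

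The reverse partner was the taller in 80 pairs and the forward partner in 46. These pairs come from 90 sites, 25 of them paired in 2 or more libraries, so the counts are not independent. In HPRT1 it was the taller in 47 pairs against 16, and in HPRT1R in 33 against 30. Within HPRT1R the episome libraries had 12 pairs with the taller reverse partner against 17, and the integrated ones 21 against 13. The reverse strand held more reads in every library, as given above, and its part in these counts was not tested. The relation between partner heights across pairs varied between libraries. Spearman's rho was -0.16 to 0.55 over 11 to 19 pairs, which share a library and its detection floor, and was highest in HPRT1 episome replicate 2.

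**Figure D3:**
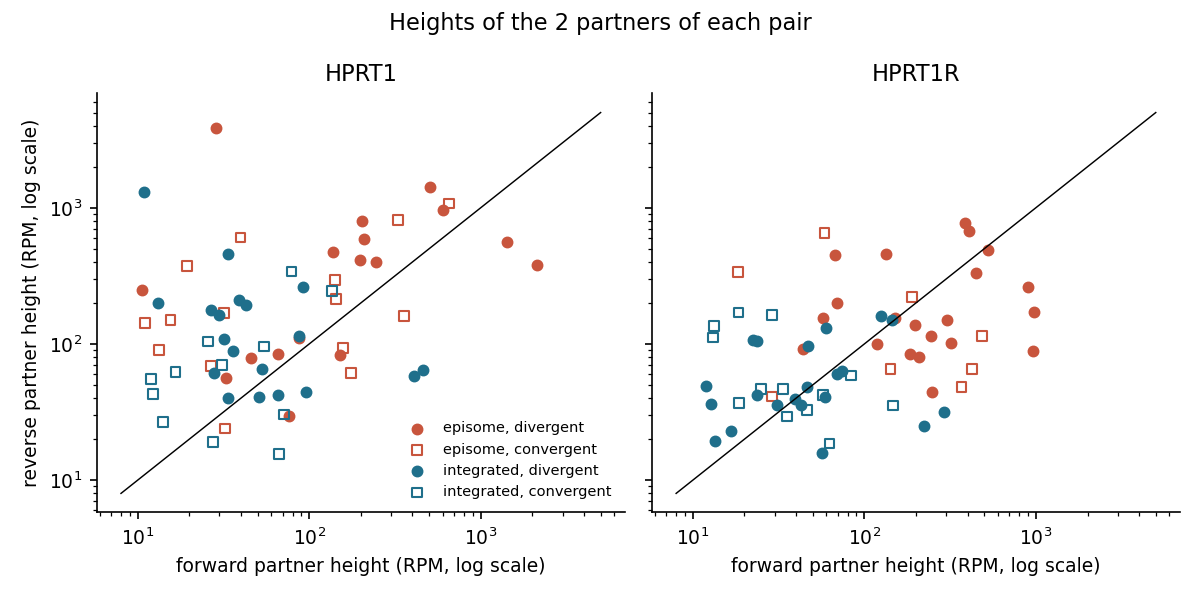
Height of the forward partner (x axis, RPM, log scale) against the reverse partner (y axis, RPM, log scale) for each pair in HPRT1 (left) and HPRT1R (right). Colours give episome and integrated libraries, filled circles divergent and open squares convergent pairs, and the line marks equal heights. Of 126 pairs, 80 lie above the line.

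Pairs were not recovered often as pairs in the other replicate. Of 126 pairs, 36 (28.6%) were called again with both 5′ ends within 100 bp and still paired. Both partners were called in 44 cases, only 1 partner in 63 and neither in 19. Where only 1 was called, it was the taller partner in 42 cases and the lower in 21. Divergent pairs were called again in 27 of 78 cases and convergent pairs in 9 of 48. In single libraries the share called again was 15.8% to 63.6%, with 7 of 18 and 7 of 11 in the HPRT1R episome and 3 or 4 pairs in each other library. Because both replicates look at the same pairs, these cases are not independent.

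**Figure D4:**
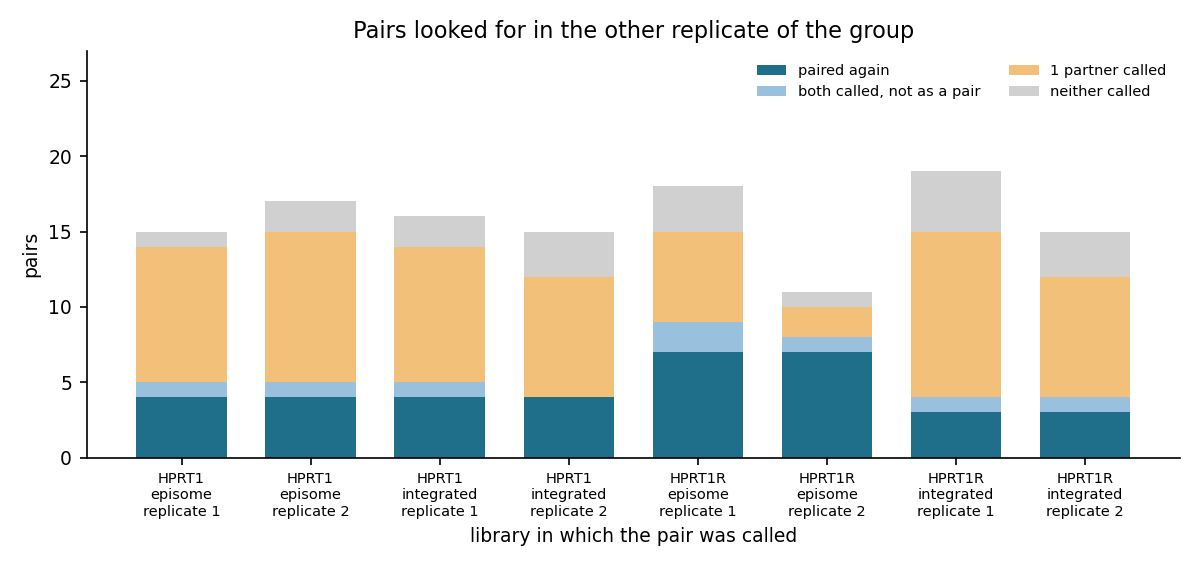
Number of pairs (y axis) of each library (x axis), split by what was called within 100 bp in the other replicate of the group. The largest class is 1 partner called in 6 libraries, and the HPRT1R episome libraries are the exception, with 7 of 18 and 7 of 11 pairs called again.

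Single members were called again about as often as other locus peaks. In the other replicate, a same-strand peak within 100 bp was found for 60.0% ± 9.03 of members and 57.7% ± 12.2 of remaining peaks (SD, n = 8 libraries). The difference averaged 2.28 percentage points over the 4 groups, from -3.51 to 8.36, and was positive in 2 of them (exact sign permutation test, p = 0.5, adjusted p = 0.667). With 4 groups the smallest possible p is 0.125, so this comparison could not pass. Leaving out a library removes its group, and the difference was then 0.256 points without the integrated HPRT1 group and 4.21 points without the HPRT1 episome group. By orientation, 65.1% ± 8.68 of divergent and 50.5% ± 11.96 of convergent members were called again.

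Joined across libraries, the pairs fell into 90 sites, 44 in HPRT1 and 46 in HPRT1R. Of these, 65 were called as a pair in 1 library, 17 in 2, 5 in 3 and 3 in all 4 libraries of a locus. Of the 25 sites in 2 or more libraries, 16 were divergent and 9 convergent by their median 5′ ends. In both contexts the pair was called at 18 of the 25, in the episome only at 4 and in the integrated locus only at 3. All 4 sites seen only in the episome were in HPRT1R.

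The 3 sites paired in all 4 libraries differed in orientation and in balance. In HPRT1, the convergent pair at 13460 and 13507, chromosome XI 159810 to 159857, had partners 29 to 47 bp apart. Its reverse start had 1075 and 815.9 RPM in the episome and 243.7 and 340.6 RPM in the integrated locus. Its forward start had 653.5, 330.5, 136.5 and 78.8 RPM in the same order. The reverse start was the taller in every library, by 1.64 to 4.32 times. Position 13493, where the printed sequence is centred, lies between the 5′ ends in each library. That position was itself chosen from CAGE-seq peaks of the study.

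The HPRT1 divergent pair at 76745 and 76830, chromosome XI 223095 to 223180, was dominated by its forward start. This start lay at base 76830 or 76831 in all 4 libraries, with 2119 and 1423 RPM in the episome and 458.1 and 407.3 RPM in the integrated locus. The reverse start had 381.8 and 556.6 RPM in the episome and 64.8 and 57.8 RPM in the integrated locus. The forward start was 5.55, 2.56, 7.07 and 7.05 times as high. In episome replicate 2 the reverse peak began at 76824, only 6 bp from the forward start, and at 76745 in the other libraries.

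The HPRT1R divergent pair near 36831 and 36930, chromosome XI 183181 to 183280, was less fixed in position and balance. The forward 5′ end moved between 36885 and 36981 and the reverse between 36817 and 36870. In the episome the forward start had 970.3 and 962.7 RPM and the reverse start 172.2 and 89.2 RPM, so that the forward start was 5.64 and 10.8 times as high. In the integrated locus the forward start had 16.8 and 58.8 RPM and the reverse start 22.8 and 40.6 RPM, with the reverse partner 1.36 times as high in replicate 1 and the forward partner 1.45 times in replicate 2. Without correction for copy number, the forward start was thus higher in both episome libraries than in either integrated one. That gap was larger than the difference between replicates. The reverse start was also higher in both episome libraries, but its gap to the integrated ones was smaller than the difference between the episome replicates.

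**Figure D5:**
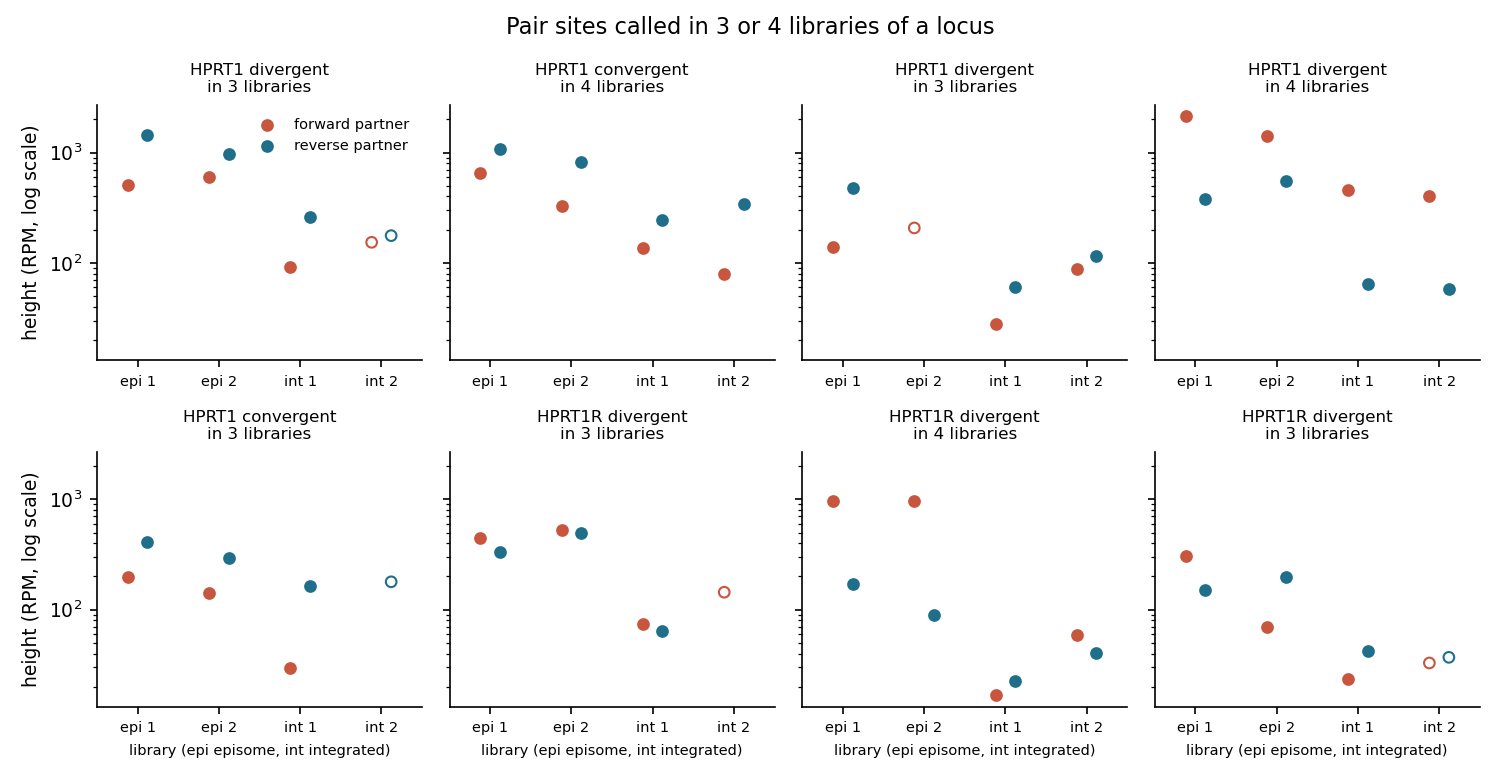
Height (y axis, RPM, log scale) of the forward and reverse partners in the 4 libraries of the locus (x axis) for the 8 sites called as a pair in 3 or 4 libraries. Filled points belong to a called pair, and orientation is that of the median 5′ ends. Open points are peaks within 100 bp of the site where this pair was not called, some of them paired with another peak. At the HPRT1R site paired in 4 libraries the forward partner is at 970.3 and 962.7 RPM in the episome and at 16.8 and 58.8 RPM in the integrated locus.

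Another 5 sites were paired in 3 libraries, and apart from the HPRT1R pair at 17906 they were named after their values were seen. The HPRT1 divergent pair at 7185 and 7407 was the highest of them. Its reverse start had 1431 and 961.8 RPM in the episome and 262.4 RPM in integrated replicate 1, and its forward start 504.0, 603.1 and 91.5 RPM. In integrated replicate 2 both starts were called, at 176.6 and 153.6 RPM, but 355 bp apart. The HPRT1 divergent pair at 45372 and 45613 had 60.8 to 474.7 RPM on the reverse and 27.7 to 138.6 RPM on the forward strand in the 3 libraries where it was called. In episome replicate 2 the forward start, at 45611 and 207.3 RPM, was paired with a nearer reverse peak of 590.1 RPM at 45518, which is 93 bp away.

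The other 2 sites showed how the calls shift. At HPRT1 80322 and 80331 the partners overlapped so closely that the order changed. The reverse 5′ end was 23 bp left of the forward one in episome replicate 1 and 16 bp right of it in episome replicate 2, with the reverse start taller by 2.08 and 2.07 times. In integrated replicate 1 it was 76 bp left of a forward start of 29.7 RPM and 5.50 times as high. The pair was therefore divergent in 2 libraries and convergent in 1, although its median 5′ ends are in the convergent order. At HPRT1R 93355 and 93579 the reverse start was at the same base in 3 libraries, at 149.4, 199.5 and 42.0 RPM, and the forward start had 303.6, 69.4 and 23.7 RPM. In integrated replicate 2 both starts were present, 235 bp apart, but the reverse peak was nearer to another forward peak, 91 bp away.

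At HPRT1 93086, another position of an inserted reporter gene, a pair was called only in integrated replicate 2, at 93024 and 93124 and with 44.6 RPM on the reverse and 95.4 RPM on the forward strand. A forward peak of 1327, 1087 and 442.7 RPM was called there in the other 3 libraries, with no reverse peak within 100 bp of 93024.

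The reversed sequence keeps the base at each mirrored position, so HPRT1 and HPRT1R sites were also compared after mirroring. Of 44 HPRT1 sites, 11 lay within 300 bp of a mirrored HPRT1R site, which is 25%, while windows of that size around the HPRT1R sites covered 19.1% of the locus. Of 46 HPRT1R sites, 17 lay within 300 bp of a mirrored HPRT1 site, which is 37.0%, with 21.7% of the locus covered. For sites in 2 or more libraries the counts were 2 of 12 with 7.76% and 2 of 13 with 7.13% of the locus covered. These counts are descriptions without a test.

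Whether reversal or context changed the paired share was compared over libraries. HPRT1 libraries had a share of 36.0% ± 3.46 and HPRT1R libraries one of 34.5% ± 8.22 (SD, n = 4 each), and the ratio of geometric means was 0.941 (exact permutation test over 70 splits, two-sided, p = 0.686, adjusted p = 0.686). Episome libraries had 33.9% ± 6.40 and integrated ones 36.6% ± 5.95, with a ratio of 0.923 (exact permutation test, p = 0.600, adjusted p = 0.686). Both differences were smaller than the spread between libraries, and the smallest p of this design is 0.0286. HPRT1R episome replicate 2 had the lowest share, 25%. Without it the ratios were 1.04 and 1.02. With a limit of 150 bp the HPRT1R share was lower, with a ratio of 0.640 (exact permutation test, unadjusted p = 0.0286), which is the smallest p possible.

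Of all pairs, 57.4% ± 6.99 were divergent in HPRT1 libraries and 67.0% ± 6.42 in HPRT1R libraries (SD, n = 4 each). The difference of 9.64 percentage points did not pass (exact permutation test over 70 splits, p = 0.114, adjusted p = 0.438), and the groups overlapped. HPRT1R episome libraries had 72.2% and 72.7% and the integrated ones 63.2% and 60.0%. For HPRT1 the episome libraries had 60.0% and 47.1% and the integrated ones 62.5% and 60.0%. The difference was 11.98 percentage points without HPRT1R integrated replicate 2 (exact permutation test, unadjusted p = 0.0286, 35 splits), 6.19 without HPRT1 episome replicate 2 (exact permutation test, unadjusted p = 0.257), 5.05 with a limit of 500 bp, and -8.51 with starts placed by the summit.

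Members were spread along the whole of both loci. In HPRT1 the paired share of peaks was highest at 60 to 80 kb from the start, with 56.1% of the peaks of its 4 libraries, and lowest at 80 to 100 kb, with 21.8%. In HPRT1R it was lowest at 60 to 80 kb, with 22.2%, and highest at 40 to 60 kb, with 40.3%. The HPRT1R count at 40 to 60 kb ranged from 2 to 14 members between libraries.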

How the data were processed

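CAGE-seq peak lists of 8 yeast libraries were used, grouped by the sample titles into 4 groups of 2. The members, lists and comparisons were chosen with earlier results of these data known. The authors aligned 5′ reads with Bowtie2 2.2.9 to sacCer3 with the locus added and called peaks with MACS2 2.1.0 by library and strand, without a control, keeping duplicates (versions from the submitters' processing notes). Replicates were not pooled. The deposited score, the deposited fold (a ratio of pileup to background), the deposited −log10 p-value and q-value, and the summit offset were read from 32 lists. Lists on the separate sequence served episome libraries, and lists on the modified chromosome XI served integrated ones.

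Pileup and depth were recovered from each peak's fold and p-value under the Poisson model, assuming a 200 bp extension and a background window of 10 kb. Of 45253 pileups under 2000 reads, 100% were whole within 0.05. Reads carried no molecular identifiers, and peak lists hold no sites below the caller's threshold. Both references gave the same 5′ end for 738 of 747 locus peaks of the separate sequence. A native peak was outside genes when its 5′ end lay in no gene of the R64 (sacCer3) RefSeq annotation. HPRT1R sequence was read from the study's segment table, placed from the start of the locus with an offset of 34 bases, which the oligo at 21797 matches. That oligo was the only check of the offset.

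Libraries were compared by exact two-sided permutation of signs (256 patterns, smallest p 0.00781) or of labels (70 splits), with p adjusted over 8 tests by Benjamini-Hochberg (Python 3.11, numpy and scipy). Named sites were those paired in all 4 libraries of a locus (up to 6 divergent and 4 convergent), those with designed sequence at both ends in at least 2 libraries, and those within 100 bp of an inserted reporter. Alternatives were the distance limit, minimum q or fold, the summit as start, 1 height floor, the other reference, fold in place of height, tolerance and leaving out each library. Scripts were tested on simulated data.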

Additional observations from a re-analysis of the deposited data

Results flagged for a closer look

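In HPRT1 episome replicate 2, 47.1% of pairs were divergent, far from the 60.0% to 62.5% of the other 3 HPRT1 libraries. HPRT1R integrated replicate 2 had the highest paired share of native peaks outside genes, 17.5%, against 15.2% to 16.03% in the other 7 libraries. Both were flagged as samples far from the others, among 30 sets of 4 or 8 libraries checked. These sets share libraries, and with so many checked some flags can arise by chance.

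Opposite-strand pairs were also called on the vector of the episome, which the comparisons did not use. There were 3 in HPRT1 episome replicate 1, 3 in replicate 2, 2 in HPRT1R episome replicate 1 and 1 in replicate 2, and the integrated libraries, read from their own separate-sequence lists, had 0 pairs and 0 to 1 peaks on it. Of these 9 pairs, 8 were divergent. A forward start at 106666 was paired in 3 of the 4 episome libraries, with 165.7, 288.3 and 332.9 RPM.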

How the results depend on the processing

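Of the 8 planned comparisons, 0 passed after adjustment of the exact permutation p and 1, the width, did at an unadjusted p under 0.05. Direction and side of the threshold were kept in 104 of 128 alternative values. The height ratio was 0.849 with starts placed by the summit and 1.01 to 1.15 when each library was left out in turn. The width difference lost its unadjusted threshold with a limit of 500 bp (23.3 bp), with summit starts (8.89 bp), as the share of peaks wider than 200 bp (0.319 percentage points) and without any 1 of 6 of the 8 libraries. It was 21.6 to 30.4 bp over the left-out libraries. The gap between partners against native pairs was -0.33 on the log2 scale with a limit of 150 bp and -0.23 with the deposited fold, both under an unadjusted p of 0.05, -0.070 with a minimum fold of 4, and -0.27 to -0.076 over the left-out libraries. The recurrence difference was -6.49 percentage points with summit starts, 0.064 with a tolerance of 50 bp, 6.80 with a limit of 500 bp, and 0.256 to 4.21 over the left-out libraries.

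The ratio of HPRT1R to HPRT1 paired shares was 0.640 at 150 bp, 1.05 with a minimum −log10 q of 20, and 0.858 to 1.04 over the left-out libraries. The episome to integrated ratio was 1.002 with 1 height floor for both strands, 1.08 with the minimum q, and 0.871 to 1.02 over the left-out libraries. The difference in divergent share was 22.2 percentage points at 150 bp, -0.919 with the minimum q, -8.51 with summit starts, and 6.19 to 11.98 over the left-out libraries. The causes were not tested. With a minimum fold of 4 the divergent and convergent gaps could not be compared.

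Replicate numbers were taken as names, since the paired share differed between replicates 1 and 2 by -5.74 percentage points in the HPRT1 episome and by 5.67 to 12.8 in the other groups. With the replicate block the exact p was 0.667 for the HPRT1R to HPRT1 ratio of 0.941, 0.5 for the episome to integrated ratio of 0.923 and 0.111 for the divergent share difference of 9.64, and no call changed.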
